A study of Mus musculus with 95 samples.

Results

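The genes described here are the extracellular and membrane end of the Wnt pathway in mouse embryonic stem cells: 19 Wnt ligands, 10 Frizzled receptors, 4 secreted Frizzled-related proteins (Sfrp) and 4 Dickkopf antagonists (Dkk). They were chosen by symbol alone, as every gene of the count table whose name starts with Wnt, Fzd, Sfrp or Dkk followed by a digit, which gave 37 of 23377 genes. Their transcript levels were followed over 7 genotypes, and Polycomb, PCGF and histone peaks were counted within 2.5 kb of an annotated start of each gene.

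Wnt ligands are secreted lipid-modified glycoproteins that bind Frizzled receptors together with LRP co-receptors. In the canonical branch this stops the destruction of β-catenin, which then acts with TCF/LEF factors on target genes, whereas other ligands, Wnt5a and Wnt11 among them, are best known for β-catenin-independent signalling. Sfrp proteins bind ligands outside the cell, and Dkk1, Dkk2 and Dkk4 act on the LRP co-receptors. Polycomb group proteins keep developmental genes silent in embryonic stem cells. The PRC1 complexes contain RING1A or RING1B, which ubiquitinate histone H2A (the mark H2AK119Ub1), together with a PCGF subunit, and PRC2, which contains SUZ12 and EZH1 or EZH2, methylates histone H3 (the mark H3K27me3).

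All cells were of the E14 line or derived from it, an established line of mouse embryonic stem cells. RNA-seq covered 7 genotypes with 2 libraries each: wild-type, Pcgf1-/-, Pcgf2/4-/-, Pcgf3/5-/-, Pcgf6-/-, Pcgf1/2/4-/- and Pcgf3/5/6-/- (Pcgf4 is also called Bmi1). Every group, wild-type included, was grown with serum, leukaemia inhibitory factor, a MEK1/2 inhibitor (PD0325901) and the GSK3β inhibitor CHIR99021, per the labels' protocols, and inhibition of GSK3β activates canonical signalling downstream of the receptors. Knockouts were clones made with Cas9, and both libraries of a knockout genotype carried the name of 1 clone in the count table, so clone and genotype cannot be told apart. Nothing in the labels says that the 2 libraries of a genotype came from separate cultures, and p-values therefore measure the spread between libraries only. That spread was estimated over all 14 libraries in 1 fit, not from the 2 groups compared alone. ChIP-seq gave 80 peak lists, from the same genotypes, from Ezh1/2-/- cells and from Ring1a/b-/- cells. They also came from Ring1a-/- cells with a floxed Ring1b and an inducible Cre (Ring1a-/-_Ring1bfl). The rest came from cells with a control hairpin (shCtr) or short hairpins against MGA, E2F6, USF1 or USF2. They included samples labelled shMGAdHLH and shE2F6-MGAdHLH. Each list came from 1 sample, and only RING1B and H2AK119Ub1 in Pcgf1/2/4-/- had 2.

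Library totals lay between 2147968 and 7848161 counts, and the 2 Pcgf1/2/4-/- libraries, at 2147968 and 2471117, were the shallowest. The 2 wild-type libraries differed by less than the sampling noise (chi-square per degree of freedom 0.958), so they may be 1 library deposited a second time. Both of their values are given below without an SD, and every count of changed genes was also made with them summed into 1. The other 6 groups had ratios of 19.5 in Pcgf2/4-/-, 10.1 in Pcgf1-/- and 5.31 in Pcgf3/5-/-. In Pcgf6-/-, Pcgf3/5/6-/- and Pcgf1/2/4-/- they were 1.89, 1.19 and 1.18. Of the targeted genes, Pcgf6 had 0 counts in Pcgf6-/- and Pcgf1 fell from 63.6 CPM (counts scaled to the size of the library) in wild-type to 4.01 in Pcgf1-/-. In Pcgf1/2/4-/- Pcgf1 was at 0.719. Transcripts of the other targeted genes were less reduced or not reduced: in Pcgf2/4-/- Pcgf2 was at 47.9 against 45.9 in wild-type and Bmi1 at 13.1 against 15.2, and in Pcgf1/2/4-/- they were at 57.0 and 16.9. In Pcgf3/5-/- Pcgf3 was at 12.1 against 15.9 and Pcgf5 at 5.04 against 11.9. In Pcgf3/5/6-/- Pcgf3, Pcgf5 and Pcgf6 were at 13.6, 15.0 and 39.6, Pcgf6 being at 35.3 in wild-type. A Cas9 edit need not lower the transcript, so these values do not check those labels. The summed level of 8 embryonic stem cell markers lay between 1716 and 3352 CPM over the 14 libraries.

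PCGF6 had a wild-type peak at only 4 of the 37 genes: the receptors Fzd3 and Fzd6 and the antagonists Sfrp2 and Sfrp5. All 4 genes were raised in Pcgf3/5/6-/-, and 3 of them, all but Sfrp5, in Pcgf6-/-. Of all tested genes with a wild-type PCGF6 peak, 41.1% and 39.6% were raised in these lines. Among the 37 genes, 21 without a PCGF6 peak were tested, and 15 and 7 of those were raised. The sequences under the 4 peaks are shown because of the raised calls. Each is 200 bases of the peak, the stretch nearest its summit that holds no annotated UTR, on build NCBIM37 (mm9), read 5′ to 3′ on the gene's own strand, with CpG dinucleotides in capitals.
Fzd3, chr14:65881363-65881562, minus strand: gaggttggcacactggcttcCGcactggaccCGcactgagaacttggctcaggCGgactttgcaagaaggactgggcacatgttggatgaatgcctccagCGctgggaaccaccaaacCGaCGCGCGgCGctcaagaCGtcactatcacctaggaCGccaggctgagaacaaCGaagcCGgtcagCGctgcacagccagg
Fzd6, chr15:38838036-38838235, plus strand: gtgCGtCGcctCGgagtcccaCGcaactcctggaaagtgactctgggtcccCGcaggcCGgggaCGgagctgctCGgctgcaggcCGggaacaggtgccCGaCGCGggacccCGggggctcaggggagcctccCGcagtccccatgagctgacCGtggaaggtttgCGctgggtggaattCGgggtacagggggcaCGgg
Sfrp2, chr3:83570494-83570693, plus strand: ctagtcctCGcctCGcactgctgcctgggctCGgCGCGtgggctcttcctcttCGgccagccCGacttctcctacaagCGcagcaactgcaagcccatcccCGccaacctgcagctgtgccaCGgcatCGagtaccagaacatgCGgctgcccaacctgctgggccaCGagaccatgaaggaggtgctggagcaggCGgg
Sfrp5, chr19:42276302-42276501, minus strand: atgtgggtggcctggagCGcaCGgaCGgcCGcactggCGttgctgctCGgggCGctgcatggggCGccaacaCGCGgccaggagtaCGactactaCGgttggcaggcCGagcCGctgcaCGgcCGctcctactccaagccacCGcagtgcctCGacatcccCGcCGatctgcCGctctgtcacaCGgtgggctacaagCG
The Fzd3 stretch lies upstream of the gene, the Fzd6 stretch in its first intron without reaching the summit, and the Sfrp2 and Sfrp5 stretches in coding sequence. They hold 14, 18, 14 and 23 CpG dinucleotides. Motifs were searched in the 200 bases centred on each summit. CACGTG, the E-box read by MGA/MAX and by USF1, occurred in 0 of the 4, against 20.9% of all wild-type PCGF6 summits. TTCCCGC, read by E2F6, occurred in 0 of the 4, against 7.49% of all. Outside the searched bases, the 200 bases upstream of the Fzd3 start, which overlap the stretch shown, hold 1 CACGTG. Both strands were searched.

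PCGF1 had 10 wild-type peaks among the genes, and the strongest by rank was at the ligand Wnt11, at number 28 of 736 peaks. The stretches at Wnt11, Wnt7b and the receptor Fzd9 are shown because PCGF1 peaks at these 3 genes were also called in Pcgf2/4-/-, Pcgf3/5-/-, Pcgf6-/- and Ring1a/b-/- cells.
Wnt11, chr7:105984131-105984330, plus strand: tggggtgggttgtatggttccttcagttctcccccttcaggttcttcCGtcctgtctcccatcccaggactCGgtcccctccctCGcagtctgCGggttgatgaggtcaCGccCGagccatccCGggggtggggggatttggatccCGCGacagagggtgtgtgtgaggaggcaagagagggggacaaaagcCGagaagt
Wnt7b, chr15:85407350-85407549, minus strand: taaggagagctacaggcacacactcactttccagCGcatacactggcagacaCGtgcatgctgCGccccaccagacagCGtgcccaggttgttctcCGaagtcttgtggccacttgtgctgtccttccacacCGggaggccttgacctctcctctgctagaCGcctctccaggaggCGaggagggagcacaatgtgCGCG
Fzd9, chr5:135726295-135726494, minus strand: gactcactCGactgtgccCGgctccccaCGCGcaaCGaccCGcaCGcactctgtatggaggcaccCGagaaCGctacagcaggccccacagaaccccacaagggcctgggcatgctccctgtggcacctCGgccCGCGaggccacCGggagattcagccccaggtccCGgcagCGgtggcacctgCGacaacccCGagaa
Wnt11 and Wnt7b are shown within an intron and Fzd9 within its coding sequence. They hold 10, 10 and 17 CpG dinucleotides, and the median over all 736 wild-type PCGF1 summits was 15. Wnt7b holds 1 CACGTG, which occurred at 3.67% of all these summits.

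The bases just upstream of a start differed widely among the genes. The richest in CpG was Wnt9a, which had RING1B in wild-type cells, and among the poorest was Wnt8b, which did not; their 200 bases before the most upstream start are shown for contrast.
Wnt9a, chr11:59120230-59120429, plus strand: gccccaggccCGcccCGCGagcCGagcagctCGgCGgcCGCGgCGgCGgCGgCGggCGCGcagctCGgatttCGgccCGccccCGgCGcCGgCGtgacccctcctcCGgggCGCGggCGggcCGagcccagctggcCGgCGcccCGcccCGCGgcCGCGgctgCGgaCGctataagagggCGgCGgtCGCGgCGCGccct
Wnt8b, chr19:44567762-44567961, plus strand: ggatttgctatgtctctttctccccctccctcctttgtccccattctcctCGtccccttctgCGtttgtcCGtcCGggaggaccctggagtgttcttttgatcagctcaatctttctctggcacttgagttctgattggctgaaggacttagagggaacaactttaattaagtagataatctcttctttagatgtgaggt
Wnt9a holds 41 CpG dinucleotides in these bases and Wnt8b holds 4. The median was 19 over the 30 genes with a wild-type RING1B peak, 7 over the 7 genes without one, and 7 over 22375 protein-coding genes. The order was not strict: Dkk1 and Wnt10a had RING1B with 2 and 3 CpG, and Fzd5 lacked it with 29. On either strand, CACGTG occurred upstream of 1 of the 37 genes (Fzd3), against 5.57% of all protein-coding genes. The E2F6 motif TTCCCGC occurred upstream of 2 (Fzd4 and Sfrp5), against 3.97%. A TCF/LEF motif, CTTTGAT, occurred upstream of 3 (Wnt11, Wnt8a and Dkk4), against 2.36%. In RefSeq promoters of build GRCm38.p6, which reach from 250 bases before to 50 bases after a start and were given for 25 of the 37 genes (28 promoters), each of the 3 motifs occurred in 2 promoters, or 7.14%, against 7.15%, 4.6% and 3.73% of all promoters.

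Most of these genes were near silent in wild-type cells, and a few were well expressed. Per kilobase of exon, so that genes can be compared, Wnt5b was highest at 24.7 CPM per kb, followed by Sfrp1 at 14.1, Fzd10 at 13.2 and Fzd5 at 11.8. Dkk3 (5.36), Dkk1 (3.21), Fzd3 (2.85) and Sfrp2 (2.83) came next. The remaining genes lay at or under 2.20, and Wnt1, Wnt2, Wnt5a, Wnt9b, Wnt10b and Wnt16 had 0 counts in both wild-type libraries. Fzd5, the receptor, had the highest CPM itself, 82.2 and 81.3 in the 2 libraries, with Wnt5b at 68.2 and 61.5, Sfrp1 at 63.6 and 59.9 and Fzd10 at 41.8 and 43.7. Reads for Wnt5b, Wnt11, Wnt5a, Wnt7b and Sfrp2 may include reads of genes annotated on the other strand at the same place, since the use of strand in counting is not given in the sources used here, and Fzd10 shares its place with an annotated pseudogene.

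**Figure D1:**
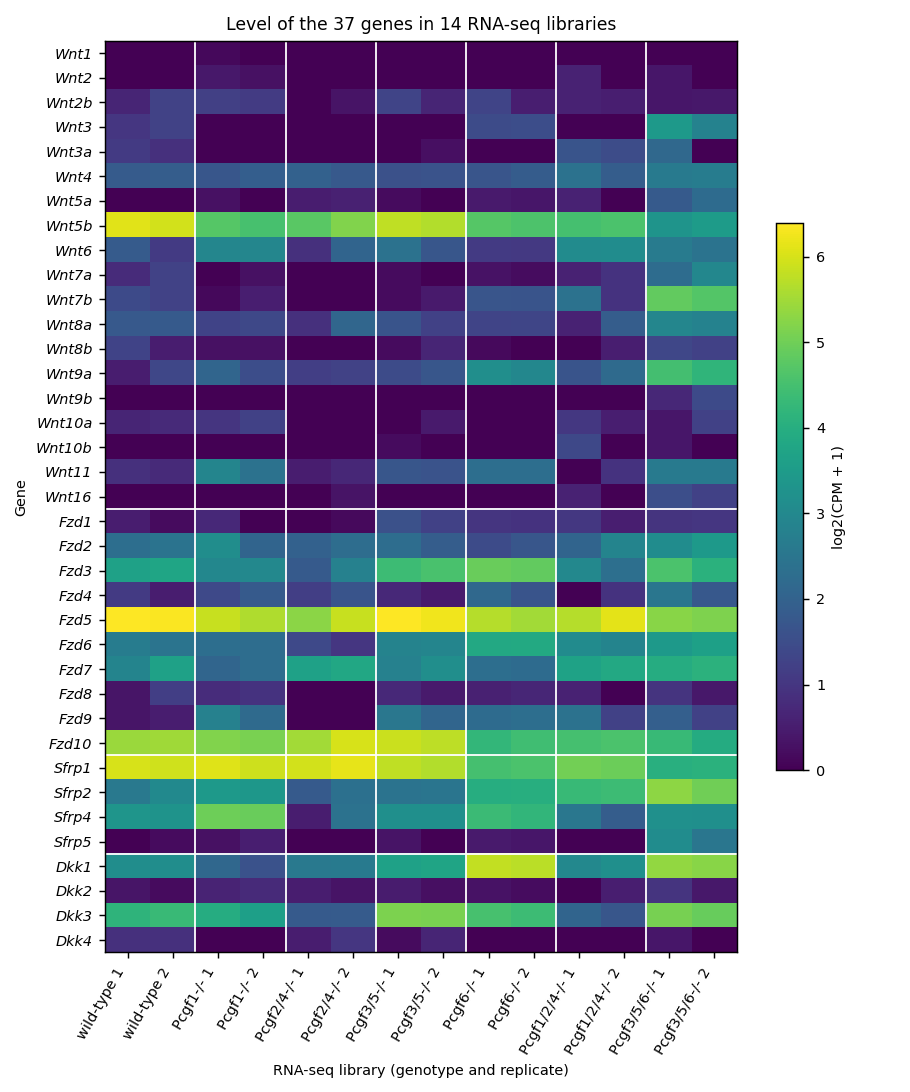
Level of each of the 37 genes (rows, by family) in each of the 14 RNA-seq libraries (columns), as log2(CPM + 1) on a colour scale from 0. Wnt5b, Fzd5, Fzd10 and Sfrp1 are bright in both wild-type libraries, most Wnt ligands are dark, and Wnt7b and Wnt9a brighten in Pcgf3/5/6-/-.

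In wild-type cells the genes were marked by Polycomb more often than genes at large. RING1B had a peak at 30 of the 37, where 15.1% of 22380 protein-coding genes had one, and SUZ12 at 31, where 16.5% did. H3K27me3 was called at 26 (12.8% of all genes), H2AK119Ub1 at 16 (3.76%) and H3K4me3, a mark of active or poised starts, at 34 (66.2%). RING1B, SUZ12, H3K27me3 and H3K4me3 were all present at 24 genes. RING1B, SUZ12 and H3K27me3 occurred together at 25, and at 10.2% of all genes. With 1 sample per list there is no test of these shares.

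The peaks were nested. All 30 genes with RING1B had SUZ12, and Dkk3 had SUZ12 without RING1B. All 27 genes with PCGF2 (12.7% of all genes) had RING1B, and all 10 with PCGF1 (2.47%) had PCGF2. These 10 were Wnt1, Wnt3a, Wnt6, Wnt7a, Wnt7b, Wnt10b, Wnt11, Fzd8, Fzd9 and Sfrp5. The 3 genes with RING1B and no PCGF2 were Fzd3, Fzd6 and Dkk1, of which Fzd3 and Fzd6 had PCGF6 (5.77% of all genes). PCGF3 had a peak at 0 of the 37 (0.889% of all genes). WDR5 had a peak at Fzd6, Sfrp2 and Sfrp5 (9.16% of all genes), and USF1 at Wnt9a and Sfrp4 (16.2%).

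By family, RING1B was present at 17 of 19 ligands, 8 of 10 receptors, 3 of 4 Sfrp genes and 2 of 4 Dkk genes. The 7 genes without RING1B were Wnt8a, Wnt8b, Fzd5, Fzd10, Sfrp4, Dkk3 and Dkk4. Of the 4 genes with the highest wild-type level per kilobase, Fzd10 and Fzd5 were among them. The other 2, Wnt5b and Sfrp1, had RING1B and SUZ12. Fzd10, Fzd5 and Fzd7 were the only 3 of the 37 with H3K36me3, a mark of transcribed gene bodies, near a start (26.2% of all genes). A window of 2.5 kb covers a larger part of a short gene than of a long one, so these calls do not compare gene bodies. Within 1 kb the wild-type H3K36me3 count was 0. The median wild-type level was 0.287 CPM per kb over the 30 genes with RING1B and 2.20 over the 7 without, and the range with RING1B reached from 0 (Wnt1) to 24.7 (Wnt5b). The strongest RING1B peaks by rank of q value were at Wnt5a, in the top 0.532% of 5454 peaks, with Wnt7b second. The weakest were at Dkk1 (76.7% down the list) and Fzd3 (75.9%).

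**Figure D2:**
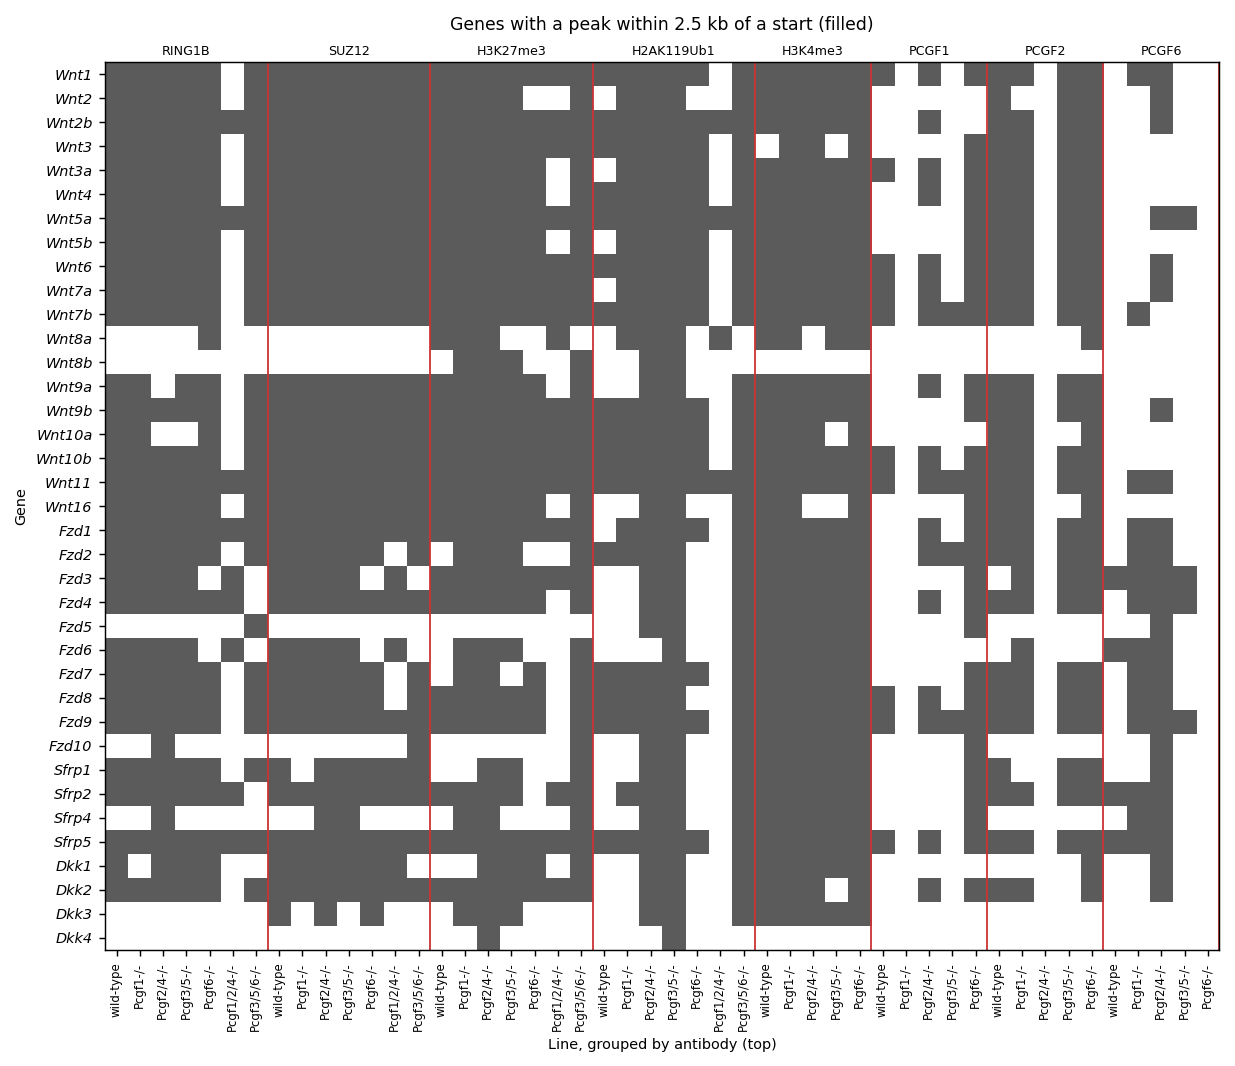
Genes (rows) with a peak within 2.5 kb of a start (filled) in each line (columns), grouped by antibody; 1 sample per column, the first where there were 2. RING1B columns are filled for 30 genes in wild-type and 9 in Pcgf1/2/4-/-, and the PCGF1 column of Pcgf6-/- is filled for 28 genes against 10 in wild-type.

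Expression was compared over all genes with edgeR's quasi-likelihood test in 1 fit of the 14 libraries, and a gene is called raised or lowered where its Benjamini-Hochberg adjusted p was below 0.05. Of the 37 genes 25 passed the filter on low counts. The 12 that did not (Wnt1, Wnt2, Wnt2b, Wnt8b, Wnt9b, Wnt10a, Wnt10b, Wnt16, Fzd1, Fzd8, Dkk2 and Dkk4) stayed at or under 2.01 CPM in every library. Several of the 25 passed only through a line in which they were high, so the counts below are a description of the genes tested and not of all 37.

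The tested genes moved in different directions in the 6 lines. In Pcgf3/5/6-/- 19 of the 25 were raised and 4 lowered, where 28% and 25.3% of all 15464 genes were raised and lowered (53.3% in either direction). In Pcgf6-/- 10 were raised and 7 lowered (27.8% and 18.6% of all genes, 46.5% in either direction). In Pcgf1-/- 6 were raised and 9 lowered (13.9% and 18.4%, 32.3% in all). In Pcgf3/5-/- the numbers were 5 and 3 (11.1% and 10.4%, 21.6% in all), and in Pcgf1/2/4-/- 3 and 7 (14.4% and 22.6%, 37% in all), so the count in Pcgf1/2/4-/- was near the share of all genes. In Pcgf2/4-/- 1 was raised and 9 lowered (8.1% and 13.5%, 21.6% in all). Loess offsets, which scale each library by expression level, moved the splits: 8 raised and 13 lowered in Pcgf6-/-, 10 and 5 in Pcgf3/5/6-/-, and 4 and 5 in Pcgf1/2/4-/-. Over all genes 49.4%, 56.8% and 39.8% were called in these lines under loess offsets, and 50.8%, 49.8% and 47.5% of those called were raised, against 59.9%, 52.6% and 38.9% without them. The median log2 fold change of the 25 was 1.35 in Pcgf3/5/6-/-, 0.49 in Pcgf6-/-, −0.14 in Pcgf3/5-/-, −0.31 in Pcgf1-/-, −0.44 in Pcgf1/2/4-/- and −0.73 in Pcgf2/4-/-. The median over all genes lay between −0.11 and 0.05 in the 6 comparisons. All 6 comparisons share the same wild-type libraries.

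Markers of other cell types moved in the same lines. The 8 markers of primitive streak and mesoderm summed to less in all 6 lines than in wild-type (51.3 to 56.5 CPM). Of these 8, 3 were tested and 1 to 3 lowered in each line. The sums were 30.9 to 36.4 in Pcgf1-/-, 19.3 to 25.2 in Pcgf2/4-/- and 18.8 to 24.1 in Pcgf3/5-/-. They were 8.59 to 9.04 in Pcgf6-/-, 23.0 to 23.5 in Pcgf1/2/4-/- and 17.6 to 21.8 in Pcgf3/5/6-/-. T alone was at 36.2 and 30.0 CPM in wild-type, 8.74 and 5.72 in Pcgf1-/- and 1.60 and 2.26 in Pcgf1/2/4-/-. In these 2 knockout lines T was the only marker of this list called lowered, and the sums there rest largely on it. T is also among the canonical targets below. In Pcgf3/5/6-/-, where 9 of the 11 ligands tested were raised, 6 of 7 trophoblast markers were raised, with a summed level of 609 to 621 CPM against 138 to 140 in wild-type. The 7 neural markers (3 of 3 tested raised there, Sox1, Neurog2 and Olig2 at 0 in both libraries) summed to 221 to 227 CPM against 91.6 to 92.8 in wild-type, and to 20.1 to 24.02 in Pcgf2/4-/-, where 2 of the 3 were lowered. The 6 fibroblast markers (3 of 3 tested raised, Col3a1 at 0) summed to 36.2 to 38.2 in Pcgf3/5/6-/- against 7.45 to 10.6 in wild-type. In Pcgf6-/- 3 of 3 were also raised (24.4 to 28.6). Fibroblast sums were above wild-type in Pcgf3/5-/- too, and below it in Pcgf1-/-, Pcgf2/4-/- and Pcgf1/2/4-/-. The 10 of primitive endoderm summed to 97.3 to 118 in Pcgf3/5/6-/- and 134 to 139 in Pcgf6-/- against 74.5 to 82.2. Their sum was 88.8 to 112.6 in Pcgf3/5-/-, and below wild-type in Pcgf1/2/4-/-. Trophoblast markers summed to 166.8 to 189.2 in Pcgf3/5-/- (3 raised, 1 lowered), and to less than wild-type in Pcgf1-/-. Neural sums were above wild-type in Pcgf3/5-/- and Pcgf1/2/4-/-, and below in Pcgf1-/- and Pcgf6-/-. In Pcgf1/2/4-/- 4 of the 8 embryonic stem cell markers were raised, summing to 3210 to 3352 against 2066 to 2073. Their part in the changes was not tested, and in bulk samples fewer cells of a type and less RNA per cell cannot be told apart.

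The size of some counts rested on single libraries, and the share called over all genes moved too. In Pcgf1-/- 8 of the 25 were changed without its replicate 1 (19.9% of all genes). In Pcgf2/4-/- 6 were changed without its replicate 2 (29.6%), and 3 where only its libraries and wild-type entered the fit (8.66%). In Pcgf3/5-/- the count was 5 and 2 without wild-type replicate 1 and 2 (10.8% and 10.1%), 3 and 4 without its own replicate 1 and 2 (11.7% and 13.0%), and 5 with wild-type summed (13.6%). In Pcgf1/2/4-/- it was 6 without its replicate 2 (18.9%). In Pcgf3/5/6-/- it was 15 without its replicate 1 (40.9%) and 15 under loess offsets (56.8%).

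**Figure D3:**
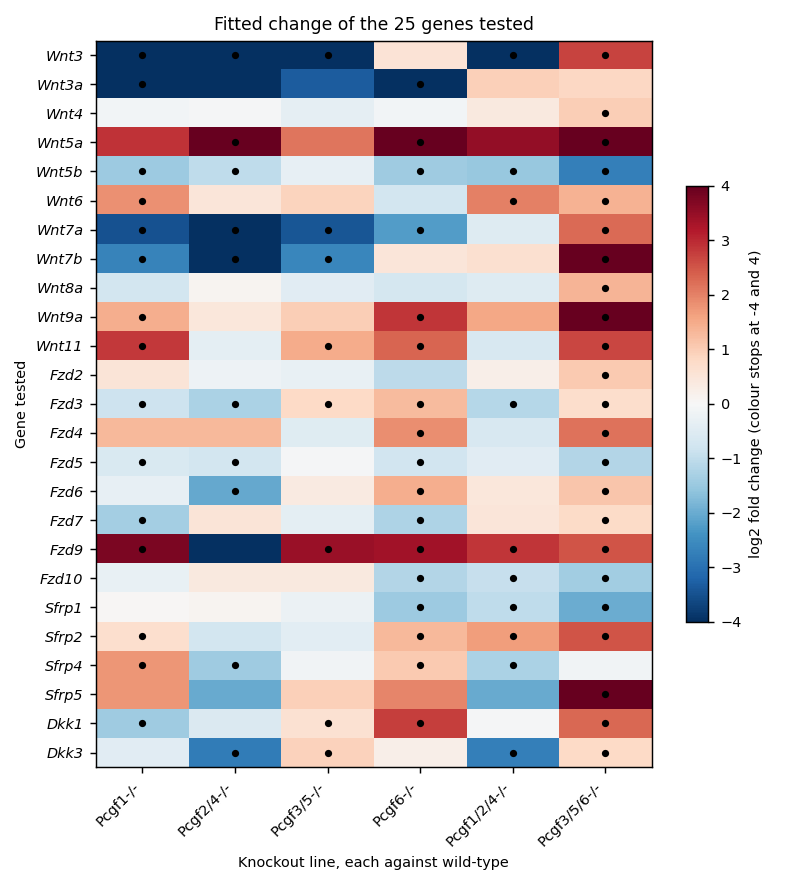
Log2 fold change of the 25 genes tested (rows) in each knockout line against wild-type (columns), from red (higher) to blue (lower) with colour stopped at −4 and 4; a dot marks an adjusted p below 0.05. The Pcgf3/5/6-/- column is red for all but 5 genes, with Wnt5b, Fzd5, Fzd10 and Sfrp1 blue and dotted; fitted values against a group with 0 counts, such as those of Wnt3 and Wnt5a, depend on the fit and are not a measure of size.

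Among the ligands, Wnt5b, the only one at a high level in wild-type cells, was lowered in 5 of 6 lines. It was at 68.2 and 61.5 CPM in wild-type, 25.1 and 22.2 in Pcgf1-/-, 26.0 and 35.4 in Pcgf2/4-/-, 25.1 and 23.3 in Pcgf6-/-, 21.9 and 23.0 in Pcgf1/2/4-/- and 8.85 and 10.5 in Pcgf3/5/6-/-. In Pcgf3/5-/- it was at 53.6 and 49.1 and did not pass the test. All 12 knockout libraries lay below both wild-type libraries, so no group overlapped wild-type. The log2 fold change was −2.75 ± 0.18 (SE) in Pcgf3/5/6-/- (edgeR adjusted p = 3.36e-08) and −1.44 ± 0.14 in Pcgf1-/- (5.76e-06). Wnt5b stayed lowered in these 5 lines under all 11 alternatives.

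Wnt9a, Wnt7b and Wnt11, ligands that were low in wild-type, were raised in Pcgf3/5/6-/-, and Wnt9a and Wnt11 in other lines too. Wnt9a was at 0.428 and 1.55 CPM in wild-type, 7.97 and 6.74 in Pcgf6-/- and 21.5 and 17.2 in Pcgf3/5/6-/-. The fold was 19.1 in Pcgf3/5/6-/- (log2 4.26 ± 0.38 SE, adjusted p = 6.89e-07) and 7.31 in Pcgf6-/-. Wild-type rested on 3 and 11 counts: without its replicate 1 the log2 values were 3.62 and 2.24, and without its replicate 2 they were 5.42 and 4.03. Wnt7b, known from lung and kidney development, was at 1.71 and 1.41 CPM in wild-type and 28.1 and 24.7 in Pcgf3/5/6-/-, 16.7-fold higher (adjusted p = 5.10e-07). It was at 2.24 and 2.14 in Pcgf6-/- and did not pass there. Wnt11 was at 0.856 and 0.703 CPM in wild-type, 6.45 and 4.34 in Pcgf1-/-, 3.98 in both Pcgf6-/- libraries and 5.06 and 5.07 in Pcgf3/5/6-/-. Both libraries of each of these lines lay above both wild-type libraries, and these 6 calls held under all 11 alternatives, with smaller log2 values under loess offsets for Wnt7b (2.18 against 4.06) and for Wnt11 in Pcgf6-/- and Pcgf3/5/6-/- (1.10 and 1.35 against 2.32 and 2.66). Wnt9a in Pcgf1-/- (3.28 and 1.83) was also called raised, and lost the call without wild-type replicate 1 (log2 0.82) or replicate 1 of the line (0.87). Wnt11 in Pcgf3/5-/- (2.27 and 2.11) lost its call without any 1 library (1.34 to 1.61).

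Wnt5a, the classic non-canonical ligand, had 0 counts in both wild-type libraries and 2.53 and 3.72 CPM in Pcgf3/5/6-/-. That is at least 14.6-fold higher, taking 3 counts over the wild-type group as the floor. Wnt5a passed the filter on low counts only through this line, so its raised call there is given without a p-value. It was also called raised with 5 counts in all in each of Pcgf2/4-/- and Pcgf6-/-, and lost these calls when any 1 wild-type library or any 1 library of the line was left out, with adjusted p between 0.0628 and 0.168. Wnt6 was at 2.57 and 1.13 CPM in wild-type and 6.67 and 6.63 in Pcgf1-/- (log2 1.84, adjusted p = 0.00262; 2.54 without wild-type replicate 1). It was at 7.47 and 7.68 in Pcgf1/2/4-/-, where it lost its call without replicate 2 of that line (log2 2.01, adjusted p = 0.0537). Its level in Pcgf3/5/6-/- was 5.37 and 4.39, and it lost the call without wild-type replicate 2 (0.92) and without either library of the line (1.24 and 1.51), and under loess offsets (0.66).

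Wnt3, Wnt7a and Wnt7b were lowered to few or 0 counts in several lines and raised in Pcgf3/5/6-/-. Wnt3, a canonical ligand needed for gastrulation, was at 0.999 and 1.41 CPM in wild-type and was not detected, with 0 counts, in either library of Pcgf1-/-, Pcgf2/4-/-, Pcgf3/5-/- and Pcgf1/2/4-/-. Against the floor of 3 counts over each group this is at least 5.43-, 4.10-, 5.10- and 1.64-fold lower. It was at 1.74 and 1.84 in Pcgf6-/- and at 9.79 and 6.08 in Pcgf3/5/6-/-, 6.53-fold higher (adjusted p = 2.06e-04). Wnt7a, known from limb patterning, was at 0.713 and 1.41 CPM in wild-type and had 0 counts in Pcgf2/4-/- (at least 3.62-fold lower). It reached 3.79 and 6.76 CPM in Pcgf3/5/6-/- (4.84-fold). It passed the filter on low counts only through Pcgf3/5/6-/-, so this raised call is given without a p-value. Its 1, 1 and 3 counts in Pcgf1-/-, Pcgf3/5-/- and Pcgf6-/- were 6.96%, 7.41% and 19.4% of the wild-type level, with exact 95% intervals of 0.165% to 45.2%, 0.176% to 48.2% and 3.60% to 68.6% that cover counting error only. Wnt7b had 0 counts in Pcgf2/4-/- (at least 5.31-fold lower) and 3 counts in each of Pcgf1-/- and Pcgf3/5-/-, which were 14.2% (2.73% to 47.4%) and 15.2% (2.91% to 50.5%) of its wild-type level. Wnt3a, the canonical ligand most used in culture, was at 1.14 and 0.844 CPM in wild-type and had 0 counts in Pcgf1-/-, Pcgf2/4-/- and Pcgf6-/-, at least 4.47-, 3.38- and 4.81-fold lower, and did not pass in Pcgf2/4-/- (adjusted p = 0.0800).

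These low calls were fragile. For Wnt3 the call in Pcgf1-/- was lost without replicate 1 of that line (adjusted p = 0.0663), those in Pcgf2/4-/- and Pcgf3/5-/- without wild-type replicate 2 (0.0607 and 0.0512) or without 1 library of the line (0.114 and 0.0676), and that in Pcgf1/2/4-/- without any 1 library (0.0706 to 0.177). For Wnt7a every lowered call was lost without wild-type replicate 2 (0.0934 to 0.246). For Wnt7b the calls were lost without replicate 1 of wild-type or of Pcgf1-/- (0.0784 and 0.236), replicate 2 of Pcgf2/4-/- (0.0773) or any 1 library in the comparison with Pcgf3/5-/- (0.0567 to 0.224). For Wnt3a both were lost without any 1 library (0.0525 to 0.232). Under loess offsets Wnt3 and Wnt7a in Pcgf3/5/6-/- changed sign, to −0.23 and −0.66, and did not pass.

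Wnt4, known from kidney development, and Wnt8a were called raised in Pcgf3/5/6-/- and passed in no other comparison with wild-type. Wnt4 was at 2.57 and 2.67 CPM in wild-type and 5.06 and 5.41 in Pcgf3/5/6-/-, and lost its call without any 1 of these 4 libraries (log2 0.92 to 1.03, adjusted p = 0.0510 to 0.0884). Wnt8a was at 2.43 and 2.53 and at 6.64 and 6.08, and lost its call without replicate 1 of Pcgf3/5/6-/- (1.28, adjusted p = 0.0745). Under loess offsets Wnt4 was at 0.18 and Wnt8a at 0.19. Of the ligands not tested, Wnt16 had 0 counts in wild-type and 1.90 and 1.35 CPM in Pcgf3/5/6-/-, and Wnt9b had 0 counts in 12 libraries and 0.632 and 1.69 CPM in Pcgf3/5/6-/-. Wnt1 had 1 count over all 14 libraries.

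**Figure D4:**
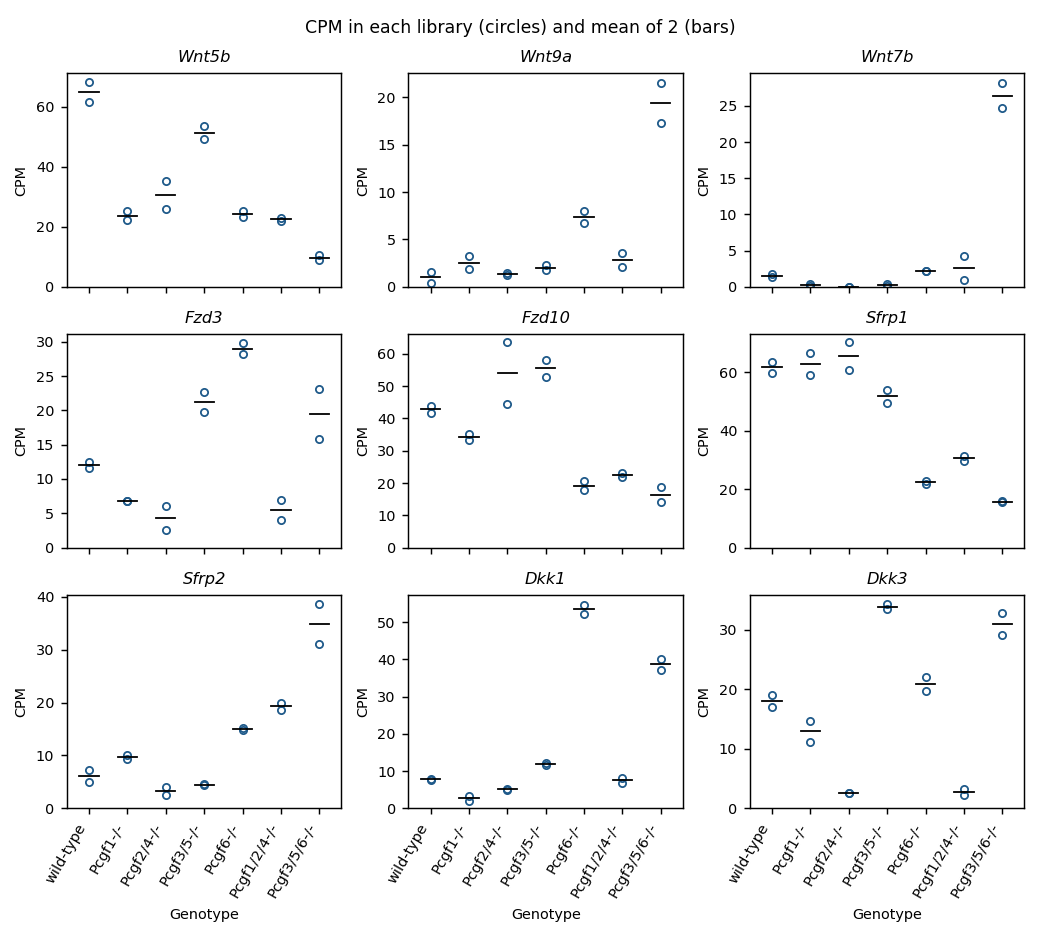
CPM in each library (circles) with the mean of the 2 (bars) for 9 genes, by genotype, with each vertical axis starting at 0. Wnt5b, Fzd10 and Sfrp1 sit lowest in Pcgf3/5/6-/-, Wnt9a and Wnt7b rise there, Dkk1 peaks in Pcgf6-/-, and Dkk3 is near 2.5 CPM in Pcgf2/4-/- and Pcgf1/2/4-/-.

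Among the receptors, Fzd5 and Fzd10, the 2 that were high in wild-type and carried no RING1B, were lowered in Pcgf6-/- and Pcgf3/5/6-/-. Fzd5 was at 82.2 and 81.3 CPM in wild-type, 50.5 and 44.7 in Pcgf6-/- and 37.3 and 34.8 in Pcgf3/5/6-/- (log2 −1.18 ± 0.17 SE, adjusted p = 5.67e-05). Fzd10 was at 41.8 and 43.7, 17.8 and 20.5, and 18.6 and 14.2 in the same order (−1.38 ± 0.19, adjusted p = 2.86e-05), and at 21.9 and 23.0 in Pcgf1/2/4-/-. None of these line libraries overlapped wild-type. Fzd5 was also lowered in Pcgf1-/- (57.4 and 48.9), a call lost without its replicate 2 (log2 −0.40, adjusted p = 0.140), and in Pcgf2/4-/- (37.7 and 56.5), a call lost where only these 2 groups entered the fit (adjusted p = 0.0665).

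Fzd3, best known for axon guidance and planar polarity, and Fzd6, known for hair patterning, moved up where Pcgf6 was deleted. Fzd3 was at 11.6 and 12.5 CPM in wild-type and 29.8 and 28.2 in Pcgf6-/- (log2 1.27 ± 0.22 SE, adjusted p = 2.31e-04). Its level in Pcgf3/5/6-/- was 23.1 and 15.9, a call lost without wild-type replicate 1 or 2 (0.63 and 0.75) or without replicate 1 of that line (0.39, adjusted p = 0.339). Fzd6 was at 5.42 and 4.50 in wild-type, 13.4 and 13.8 in Pcgf6-/- (1.45 ± 0.20, adjusted p = 4.17e-05) and 9.79 and 11.5 in Pcgf3/5/6-/- (1.10 ± 0.24, adjusted p = 0.00146). In Pcgf2/4-/- both were lowered: Fzd6 to 1.68 and 1.02 CPM (4.12-fold, adjusted p = 9.12e-04), and Fzd3 to 2.51 and 6.01, a call lost where only these 2 groups entered the fit (adjusted p = 0.0905). Fzd3 was also called lowered in Pcgf1-/- (6.78 and 6.86) and Pcgf1/2/4-/- (6.94 and 4.06) and raised in Pcgf3/5-/- (19.8 and 22.6). Those 3 calls were lost without wild-type replicate 2 (−0.76, −1.10 and 0.87), among other libraries.

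Fzd9 was raised in 5 lines from near silence. It was at 0.285 and 0.422 CPM in wild-type, 6.01 and 3.66 in Pcgf1-/-, 4.81 and 3.26 in Pcgf3/5-/- and 3.73 and 3.98 in Pcgf6-/-, with log2 fold changes of 3.77 ± 0.55, 3.46 ± 0.58 and 3.36 ± 0.58 (SE) that held under all 11 alternatives, that in Pcgf6-/- at 1.95 under loess offsets. It had 0 counts in both Pcgf2/4-/- libraries, where wild-type had 5. The raised calls in Pcgf1/2/4-/- (4.27 and 1.35) and Pcgf3/5/6-/- (2.84 and 1.35) were lost without replicate 1 of the line (log2 1.88 and 1.86) or without wild-type replicate 1 (2.61 and 2.26), and the latter also under loess offsets (1.00). Fzd4, the receptor of retinal vessel growth, rose from 1.14 and 0.422 CPM to 3.49 and 2.14 in Pcgf6-/- and 4.74 and 2.37 in Pcgf3/5/6-/-; both calls were lost without wild-type replicate 2 (1.31 and 1.63) or replicate 1 of the line (1.43 and 1.57), and under loess offsets (0.31 and 0.52).

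Fzd7, a receptor linked to self-renewal of embryonic stem cells, was at 6.42 and 11.5 CPM in wild-type. It was called lowered in Pcgf1-/- (3.28 and 3.89) and Pcgf6-/- (3.98 and 3.68) and raised in Pcgf3/5/6-/- (14.5 and 16.2). The lowered calls were lost without wild-type replicate 2 (−0.87 and −0.74), that in Pcgf1-/- also without its replicate 1 (−1.20), and the raised call without wild-type replicate 1 (0.41) or either library of its line (0.84 and 0.67). Fzd2 was at 4.00 and 4.36 CPM in wild-type and 7.58 and 9.80 in Pcgf3/5/6-/-, and lost its call without any 1 of these libraries (0.83 to 1.22). Fzd1 and Fzd8 were not tested; Fzd1 was highest in Pcgf3/5-/-, at 2.01 and 1.34 CPM.

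Among the antagonists, Sfrp1 was the most abundant and was lowered in 3 lines. It was at 63.6 and 59.9 CPM in wild-type, 21.8 and 23.0 in Pcgf6-/- (log2 −1.47 ± 0.11 SE), 31.5 and 29.8 in Pcgf1/2/4-/- (−1.01 ± 0.13) and 15.5 and 15.9 in Pcgf3/5/6-/- (−1.98 ± 0.14, adjusted p = 5.67e-08). In the other 3 lines its libraries lay between 49.7 and 70.4 CPM and it did not pass. Sfrp2 moved the other way in the same 3 lines. It was at 4.99 and 7.17 CPM in wild-type, 14.8 and 15.2 in Pcgf6-/- (1.30 ± 0.21), 18.7 and 19.9 in Pcgf1/2/4-/- (1.66 ± 0.25) and 38.5 and 31.1 in Pcgf3/5/6-/- (2.51 ± 0.21, adjusted p = 4.42e-07). The 6 calls held under all 11 alternatives. Sfrp2 was also called raised in Pcgf1-/- (10.1 and 9.37), a call lost without wild-type replicate 1 (0.44) or replicate 1 of the line (0.62).

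Sfrp4 was raised in Pcgf1-/-, to 30.6 and 29.7 CPM from 9.13 and 8.72 in wild-type (3.38-fold, adjusted p = 1.58e-04), and in Pcgf6-/-, to 19.5 and 17.5. It was called lowered in Pcgf2/4-/- (0.419 and 4.34) and Pcgf1/2/4-/- (4.81 and 2.71). The former call was lost without wild-type replicate 1 (log2 −1.42, adjusted p = 0.0571) and where only these 2 groups entered the fit, and the latter without any 1 library (−0.88 to −1.70, adjusted p = 0.0876 to 0.326). Sfrp5 had 1 count in wild-type, 0 in Pcgf2/4-/- and Pcgf1/2/4-/-, and 7.58 and 4.73 CPM in Pcgf3/5/6-/- (log2 6.05 ± 0.71 SE). It passed the filter on low counts only through Pcgf3/5/6-/-, so its raised call is given without a p-value. The ratio to that 1 wild-type count has an exact 95% interval of 1480% to 355021%, and the fitted value was 5.23 and 8.02 without wild-type replicate 1 and 2 and 3.08 under loess offsets.

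Dkk1, the LRP-binding antagonist and itself a target of canonical signalling in many tissues, had the largest rise of a well-counted antagonist. It was at 7.85 and 7.74 CPM in wild-type, 54.7 and 52.1 in Pcgf6-/- (log2 2.77 ± 0.16 SE, adjusted p = 8.32e-09) and 40.1 and 37.2 in Pcgf3/5/6-/- (2.31 ± 0.17). It was lowered in Pcgf1-/-, at 3.39 and 2.06 (−1.41 ± 0.23, adjusted p = 3.65e-04). In Pcgf3/5-/- it was at 11.6 and 12.3, a call lost without any 1 library (0.58 to 0.65). Dkk3, a family member with a less certain place in Wnt signalling, separated the lines differently. It was at 17.0 and 19.0 CPM in wild-type, 2.51 and 2.56 in Pcgf2/4-/- and 3.20 and 2.26 in Pcgf1/2/4-/-, 7.01- and 6.63-fold lower (adjusted p = 7.20e-06 and 1.80e-05). In Pcgf3/5-/- it was at 34.2 and 33.4 and in Pcgf3/5/6-/- at 32.9 and 29.1, 1.88- and 1.72-fold higher. These 4 calls held under all 11 alternatives. Dkk4 was not tested; it had 12 counts in wild-type and 0 in Pcgf1-/-, Pcgf6-/- and Pcgf1/2/4-/-.

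Of the 83 calls against wild-type, 41 kept their direction and stayed below 0.05 in every alternative run, and 42 lost the call in at least 1. The authors' deposited tables listed all but 1 of the 37 genes. They called 23 in Pcgf3/5/6-/-, all 23 in the same direction as here, and 15 in Pcgf6-/-, of which 14 were called here in the same direction. That Pcgf6 table names another clone than the count table does. In Pcgf1-/-, Pcgf2/4-/-, Pcgf3/5-/- and Pcgf1/2/4-/- the authors' deposited tables called 13, 9, 5 and 10, of which 13, 9, 5 and 9 were called here in the same direction.

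Each triple knockout was set against the 2 lines with fewer of its deletions. Against Pcgf3/5-/-, Pcgf3/5/6-/- had 16 of the 25 raised and 4 lowered (27.1% and 24.7% of all genes, 51.8% in either direction). Against Pcgf6-/- it had 14 raised and 4 lowered (19% and 27%, 46% in either direction). Wnt7b stood at 26.4 CPM in Pcgf3/5/6-/- (mean of 2) against 0.259 in Pcgf3/5-/- and 2.19 in Pcgf6-/-, with log2 differences of 6.67 ± 0.47 and 3.57 ± 0.31 (SE). Wnt9a stood at 19.4 against 2.02 and 7.35 (3.28 ± 0.35 and 1.39 ± 0.27). Wnt5b was lower in Pcgf3/5/6-/- than in either (−2.41 ± 0.18 and −1.33 ± 0.19). Dkk1 was 3.24-fold higher than in Pcgf3/5-/- and 1.38-fold lower than in Pcgf6-/- (adjusted p = 1.54e-06 and 0.0172), and the second of these calls was lost without any 1 of the 4 libraries (adjusted p up to 0.154). Fzd3, Fzd6, Fzd5 and Fzd10 did not differ from Pcgf6-/- by the test.

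Pcgf1/2/4-/- differed from the 2 lines with fewer deletions in about the share of these genes that differed over all genes. Against Pcgf1-/- 5 of the 25 were raised and 5 lowered (40% changed, where 19.6% of all genes were raised and 22% lowered, 41.6% in either direction). Against Pcgf2/4-/- the numbers were 6 and 3 (36% changed, where 11.6% of all genes were raised and 18.4% lowered, 30% in either direction). Sfrp1 was lower in Pcgf1/2/4-/-, at a mean of 30.7 CPM, than in Pcgf1-/- at 62.9 and Pcgf2/4-/- at 65.6 (−1.05 ± 0.13 and −1.12 ± 0.13), though neither of those lines differed from wild-type by the test. Fzd10 was likewise lower at 22.5 than at 34.3 and 54.0, and the first of these calls was lost without replicate 1 of Pcgf1-/- or either library of Pcgf1/2/4-/- (adjusted p = 0.0838 to 0.105). Sfrp2, at 19.3, was higher than at 9.71 and 3.30 (0.98 ± 0.24 and 2.39 ± 0.29), the first of which was lost without replicate 2 of Pcgf1/2/4-/- (adjusted p = 0.0668). Sfrp4, Wnt11 and Dkk3 were lower than in Pcgf1-/-, at 3.76 against 30.2, 0.452 against 5.40 and 2.73 against 12.9 CPM. Dkk3 did not differ from Pcgf2/4-/-.

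RING1B peaks at these genes were fewest in Pcgf1/2/4-/-. The 30 genes with RING1B in wild-type became 29 in Pcgf1-/-, 30 in Pcgf2/4-/-, 29 in Pcgf3/5-/- and 29 in Pcgf6-/-, where 15.2%, 17%, 15.4% and 12.6% of all genes had a peak. In the 2 Pcgf1/2/4-/- samples 9 and 10 had one (6.84% and 6.15%), and in Pcgf3/5/6-/- 26 (7.88%). Both Pcgf1/2/4-/- samples kept Wnt2b, Wnt11, Fzd1, Fzd3, Fzd4, Fzd6, Sfrp2 and Sfrp5. Of the wild-type RING1B genes, 25 of 30 kept a peak in Pcgf3/5/6-/-, where 49.8% of all wild-type RING1B genes did. In Pcgf1/2/4-/- 9 and 10 of 30 did, where 32.0% and 27.5% of all did.

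SUZ12 peaks stayed at most of the genes. Wild-type cells had SUZ12 at 31, Pcgf1-/- at 29 (15.1% of all genes), Pcgf2/4-/- at 32 (21%), Pcgf3/5-/- at 31 (16.9%), Pcgf6-/- at 29 (14.4%), Pcgf1/2/4-/- at 27 (13.2%) and Pcgf3/5/6-/- at 28 (13%). H3K27me3, called at 26 in wild-type, was called at fewer genes in Pcgf1/2/4-/-, 17 (5.49%), and in Pcgf6-/-, 25 (13.6%). It was called at more in Pcgf1-/-, 32 (19.4%), Pcgf2/4-/-, 35 (35.8%), Pcgf3/5-/-, 31 (20.9%), and Pcgf3/5/6-/-, 33 (19.7%). The H3K27me3 lists held 8063 peaks in wild-type, 3918 in Pcgf1/2/4-/- and 13041 to 112110 in the other lines. H2AK119Ub1 was called at 4 and 1 genes in the 2 Pcgf1/2/4-/- samples (1.64% and 0.827%) and at 34 in Pcgf3/5/6-/- (31.2%). The H2AK119Ub1 lists differ widely in length, with 1741 peaks in wild-type, 121944 in Pcgf2/4-/- and 128786 in Pcgf3/5-/-. In those 2 lines 35 and 37 of the genes had a peak, and so did 40.8% and 65% of all genes. H2AK119Ub1 was called at 23 in Pcgf1-/- (9.79%) and 18 in Pcgf6-/- (6.93%). H3K4me3 stayed at 31 to 35 genes in the 4 lines measured, where 64.9% to 67.9% of all genes had it.

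**Figure D5:**
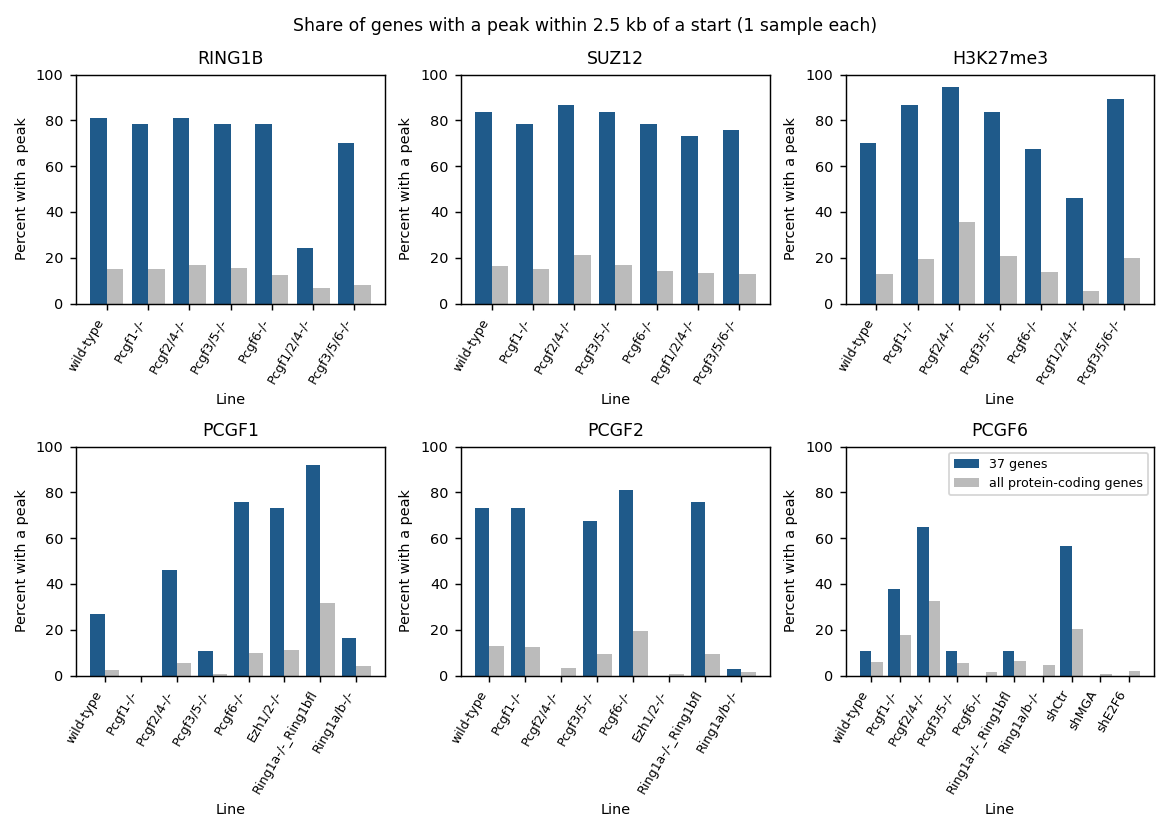
Percent of the 37 genes (blue) and of all 22380 protein-coding genes (grey) with a peak within 2.5 kb of a start, by antibody and line, 1 sample per bar. RING1B falls from 81.1% to 24.3% of the 37 in Pcgf1/2/4-/-, and PCGF2 is at 0% in Pcgf2/4-/- and Ezh1/2-/-.

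Few genes lost RING1B in the other lines. In Pcgf6-/- the lost genes were Fzd3 and Fzd6, the same 2 that lost SUZ12 there, and in Pcgf3/5/6-/- they were Fzd3, Fzd6, Fzd4, Sfrp2 and Dkk1. Fzd3 and Fzd6, with PCGF6 and without PCGF2 in wild-type, were both raised in Pcgf6-/-. Sfrp2 had RING1B in Pcgf6-/- at 67.7% down the list, against 31.2% in wild-type, and lost its H3K27me3 there. Sfrp5, the other gene with PCGF6, kept RING1B in every Pcgf line, and rose in Pcgf3/5/6-/- to 7.58 and 4.73 CPM. In Pcgf1/2/4-/- Fzd3, Fzd6, Sfrp2 and Sfrp5 all kept RING1B in both samples. In Pcgf1-/- the only loss was Dkk1, which was lowered in that line, and in Pcgf3/5-/- it was Wnt10a. In Pcgf2/4-/- Wnt9a and Wnt10a were lost and Fzd10 and Sfrp4 gained.

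In Pcgf3/5/6-/- and Pcgf6-/- the raised genes with wild-type RING1B included genes that kept the peak and genes that lost it. The share raised among all genes that kept or lost RING1B was not counted. The splits below are therefore a description, and a link between a lost peak and a raised level was not tested. In Pcgf3/5/6-/-, 17 of the 20 tested genes with wild-type RING1B were raised and 2 lowered, where 56.9% and 11.7% of all genes with RING1B were, and 12 of the 17 raised kept their RING1B peak. The other 5 were the 5 genes that lost it. Of the 5 tested genes without RING1B, Dkk3 and Wnt8a were raised and Fzd5 and Fzd10 lowered (23.2% and 27.4% of all such genes). In Pcgf1/2/4-/-, where most RING1B peaks were lost, 3 of the 20 were raised and 4 lowered (15.6% and 16.9% of all genes with RING1B). The 3 were Wnt6, Fzd9 and Sfrp2, of which Sfrp2 kept RING1B. The other 2 were among the 21 and 20 genes that lost it in the 2 samples. In Pcgf6-/- 9 of 20 were raised and 5 lowered (46.2% and 16.4%), and of the 9 raised 7 kept RING1B and 2, Fzd3 and Fzd6, were the 2 that lost it.

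PCGF1 and PCGF6 were called at more of these genes in the lines whose lists were longer. PCGF1 was called at 10 in wild-type, 17 in Pcgf2/4-/- (5.51% of all genes), 4 in Pcgf3/5-/- (0.755%), 28 in Pcgf6-/- (9.79%) and 27 in Ezh1/2-/- (11%), and at 0 in Pcgf1-/- (0.00894%). All 10 wild-type genes were kept in Pcgf2/4-/-, Pcgf6-/- and Ezh1/2-/-. PCGF2 was called at 27 in wild-type and in Pcgf1-/- (12.4%), 25 in Pcgf3/5-/- (9.59%), 30 in Pcgf6-/- (19.5%), 0 in Pcgf2/4-/- (3.4%) and 0 in Ezh1/2-/- (0.755%). So in Ezh1/2-/- PCGF2 was called at none and PCGF1 at 27 of the 37. PCGF6 was called at 4 in wild-type, 14 in Pcgf1-/- (17.6%), 24 in Pcgf2/4-/- (32.4%), 4 in Pcgf3/5-/- (5.32%) and 0 in Pcgf6-/- (1.64%). PCGF3 was called at Wnt5a in Pcgf6-/- (2.26% of all genes) and at 0 of the 37 in Pcgf1-/- (0.29%), Pcgf2/4-/- (0.442%) and Pcgf3/5-/- (0.0492%). The PCGF1 lists held 736 peaks in wild-type, 1845 in Pcgf2/4-/-, 214 in Pcgf3/5-/-, 3228 in Pcgf6-/- and 4150 in Ezh1/2-/-. The PCGF6 lists held 1868 in wild-type, 5528 in Pcgf1-/-, 12842 in Pcgf2/4-/- and 1571 in Pcgf3/5-/-. The part of list length in these counts was not tested.

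PCGF peaks at these genes were fewer in Ring1a/b-/- cells than in the floxed line. In Ring1a-/-_Ring1bfl cells PCGF1 was called at 34 of the genes (31.7% of all genes), PCGF2 at 28 (9.51%) and PCGF6 at 4 (6.15%). In Ring1a/b-/- cells they were called at 6 (4.14%), 1 (1.55%) and 0 (4.74%). The lists went from 12735, 3904 and 2222 peaks to 1091, 662 and 1642. Over all genes, 12.4% of those with PCGF1 in the floxed line, 5.40% of those with PCGF2 and 55.6% of those with PCGF6 kept a peak. The 6 genes that kept PCGF1 were Wnt7a, Wnt7b, Wnt9a, Wnt11, Fzd2 and Fzd9, and the gene that kept PCGF2 was Fzd8. Set against wild-type, 4 of 10 genes had kept PCGF1, 1 of 27 PCGF2 and 0 of 4 PCGF6, where 30.7%, 10.7% and 43.5% of all genes with these peaks had. With a control hairpin PCGF6 was called at 21 of the genes (20.2% of all genes), with a hairpin against MGA at 0 (0.71%) and with a hairpin against E2F6 at 0 (1.89%). In the samples labelled shMGAdHLH and shE2F6-MGAdHLH it was called at 2, Wnt1 and Fzd6 (2.23%), and at 0 (0.831%). The control hairpin list held 7451 peaks, the wild-type list 1868 and the 4 others 355 to 733.

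Other parts of the pathway were taken from a list of 76 genes of secretion, co-receptors, other antagonists, receptor turnover, planar polarity, cytoplasmic and nuclear steps and canonical targets, of which 66 were tested. Of these 20 were raised and 17 lowered in Pcgf3/5/6-/- (28% and 25.3% of all genes), in Pcgf6-/- 14 and 24 (27.8% and 18.6%), in Pcgf1-/- 13 and 15 (13.9% and 18.4%), in Pcgf1/2/4-/- 8 and 23 (14.4% and 22.6%), in Pcgf3/5-/- 7 and 11 (11.1% and 10.4%) and in Pcgf2/4-/- 13 and 7 (8.1% and 13.5%). The number changed in Pcgf3/5/6-/- was near the share of all genes, 53.3%. The cytoplasmic genes, 20 tested, had 5 raised and 4 lowered in Pcgf3/5/6-/-, with a median log2 fold change of −0.06. Among 7 tested genes of receptor turnover and R-spondins 4 were raised and 1 lowered there, and Rspo4, which encodes a secreted enhancer of Wnt signalling, went from 0 counts to a mean of 5.42 CPM.

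Canonical targets were lowered more often than raised in 5 of the 6 lines. Of 14 targets tested, 0 were raised and 10 lowered in Pcgf1-/- (13.9% and 18.4% of all genes), 2 and 9 in Pcgf6-/- (27.8% and 18.6%), 0 and 8 in Pcgf1/2/4-/- (14.4% and 22.6%), 2 and 7 in Pcgf3/5/6-/- (28% and 25.3%) and 1 and 3 in Pcgf3/5-/- (11.1% and 10.4%). In Pcgf2/4-/- 3 were raised and 3 lowered (8.1% and 13.5%). Their summed level was 765 to 785 CPM in wild-type, 390 to 414 in Pcgf1-/- and 299 to 309 in Pcgf1/2/4-/-. It was 412 to 416 in Pcgf6-/-, 462 to 491 in Pcgf3/5/6-/-, 581 to 695 in Pcgf2/4-/- and 712 to 755 in Pcgf3/5-/-. Sp5, a direct target, fell from a mean of 9.42 CPM to 0.0622 in Pcgf6-/- and 0.158 in Pcgf3/5/6-/-. T, the primitive streak factor Brachyury, fell from 33.1 to 7.23 in Pcgf1-/- and 1.93 in Pcgf1/2/4-/-. The medium held CHIR99021 in every group. Other genes with the largest changes by line were Wif1, a secreted antagonist, at 19.4 against 4.95 CPM in Pcgf1-/-, Rnf43, which removes Frizzled receptors from the membrane, at 7.56 against 2.90 in Pcgf2/4-/-, Lgr5, an R-spondin receptor, at 6.12 against 0.921 in Pcgf6-/-, Prickle1, a planar polarity gene, at 20.5 against 7.01 in Pcgf3/5-/-, and Dkkl1, a Dickkopf-like gene, at 6.53 against 2.13 in Pcgf1/2/4-/-. Tle2, a co-repressor of TCF/LEF factors, was the most lowered in Pcgf2/4-/- and Pcgf3/5-/-, at 0.383 and 0.843 against 5.16.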

How the data were processed

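RNA-seq (14 libraries) and ChIP-seq (81 samples, 80 peak lists) were analysed as deposited. The submitters' processing notes name TopHat2 2.1.1, Bowtie 1.2.2, HTSeq 0.7.2, DESeq2 and MACS2 2.1.1 and build mm9, without saying what each did. The deposited counts are whole reads per gene. In the deposited peak lists, fold enrichment and −log10 q are the authors' values and were used only within a list. The authors' deposited tables give log2 fold changes and adjusted p-values.

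Counts were fitted with edgeR 4.0.16 (R 4.3.3; TMM scaling, filterByExpr, quasi-likelihood test, Benjamini-Hochberg over 15464 genes) with all 14 libraries in 1 fit. CPM uses TMM library sizes. On simulated counts the test was checked for known changes. DESeq2 1.42.0, limma 3.58.1 loess offsets, RLE factors, no filter, only the 2 groups compared, a replicate block, each library left out and wild-type libraries summed (chosen after seeing the data) were the alternatives. A peak was assigned to a gene where it shared at least 1 base with 2.5 kb on either side of an annotated start (GENCODE M1, NCBIM37).

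The genes and lists were chosen with earlier results of these data known. Library values are given for genes with an adjusted p below 0.05, an absolute log2 fold change of at least 1, a group mean of at least 2 CPM and no overlap with wild-type in at least 1 comparison; further library values were added after they were seen. Pathway genes named are, per comparison, the most raised and most lowered with a mean of at least 5 CPM.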

Additional observations from a re-analysis of the deposited data

How the results depend on the processing

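The counts of Wnt, Fzd, Sfrp and Dkk genes changed against wild-type depended on single libraries and on the scaling. With 1 library left out at a time the counts ranged from 8 to 13 in Pcgf1-/- (15 with all), 6 to 11 in Pcgf2/4-/- (10), 2 to 5 in Pcgf3/5-/- (8), 12 to 15 in Pcgf6-/- (17), 6 to 9 in Pcgf1/2/4-/- (10) and 15 to 20 in Pcgf3/5/6-/- (23). With only the 2 groups in the fit the count in Pcgf2/4-/- was 3, with wild-type libraries summed the count in Pcgf3/5-/- was 5, and under loess offsets the count in Pcgf3/5/6-/- was 15. Under loess offsets Wnt3 and Wnt7a in Pcgf3/5/6-/- changed sign, to −0.23 and −0.66. With 1 library left out at a time, Wnt3a in Pcgf3/5/6-/- ranged from −2.17 to 6.28 against Pcgf3/5-/- and from 0 to 7.26 against Pcgf6-/-, the lower ends without replicate 1 of Pcgf3/5/6-/-. The causes were not tested. Replicate numbers did not pair the libraries (correlations of deviations from −0.46 to 0.38 over 21 pairs of groups, 3 above 0.1), and with a replicate block the counts were 15, 9, 7, 16, 8 and 23 in the order above.

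A count of genes with a peak is given here where it moved by more than 1.5 times or to 0. With peaks within 1 kb 7 of the 80 counts did: H3K36me3 to 0 in wild-type and Pcgf3/5-/- and 1 in Pcgf1-/- and Pcgf6-/-, PCGF2 in Ring1a/b-/- to 0, H2AK119Ub1 in the first Pcgf1/2/4-/- sample to 1 and USF1 to 1. Within 5 kb 5 did: H3K36me3 to 5 in Pcgf1-/-, Pcgf2/4-/- and Pcgf3/5-/- and 7 in Pcgf6-/-, and H2AK119Ub1 in the second Pcgf1/2/4-/- sample to 2. With the most upstream start only, H2AK119Ub1 in the first Pcgf1/2/4-/- sample was at 2 and PCGF6 in shMGAdHLH at 1. A −log10 q of at least 5 moved none of the 80 that far.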
